A study of Mus musculus with 4 samples.

Results

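The genes described here encode 8 enzymes that activate or detoxify aristolochic acid I (AAI), the nitrophenanthrene carboxylic acid of Aristolochia plants: Nqo1, Nqo2, Por, Cyp1a1, Cyp1a2, Sult1a1, Nat1 and Nat2. They were taken by gene name from the annotation of a mouse gene expression array, which gave 10 probes out of 56605 and 8 genes out of 37074 named features. Liver RNA was measured in 4 groups of C57BL/6 wild-type mice aged 6 weeks. Females received AAI at 5 mg/kg/day and males at 2 mg/kg/day, injected intraperitoneally for 3 weeks, on 5 days of each week, and mice of each sex that received corn oil on the same schedule were the controls. RNA from 5 mice was pooled in equal amounts in each group and hybridized to 1 array, so that no spread between mice and no statistical test was possible, and sex and dose cannot be told apart.

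AAI has to be processed in the body before it damages DNA. Reduction of its nitro group gives an N-hydroxyaristolactam and, from it, a nitrenium ion that binds purine bases, and the cytosolic quinone oxidoreductases and microsomal enzymes that draw electrons from cytochrome P450 reductase can carry out this step. Cytochromes of the CYP1A family act in both directions: with oxygen they remove a methyl group and give the less toxic 8-hydroxy metabolite, and with little oxygen they reduce the nitro group. Sulfotransferases and N-acetyltransferases can add a leaving group to the hydroxylamine or prepare it for excretion. Oxidation by cytochromes P450 takes place in the liver, and nitroreduction in liver and kidney cells.

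Signals are given as log2 of the normalized array intensity, and each log2 ratio is a difference of such signals between 2 arrays, so that 1 unit is a 2-fold difference. The scanner software marked the 10 probes as well above background on all 4 arrays, none of their spots was saturated or marked as an outlier, and each probe had 1 spot. The technical error was taken from genes with several probes: the median SD between the ratios of such probes was 0.25 in females, 0.24 in males and 0.23 between the corn oil-treated sexes, over 9129, 8619 and 8894 genes. This SD contains no difference between mice. Levels of different genes were not set against each other, because probes differ in how they hybridize.

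The liver pools also differed in RNA of other tissues. The 12 skeletal muscle markers were all at least 2-fold higher after AAI in both sexes, and their summed signal went from 1511 to 48740 in females and from 6280 to 389900 in males. Fat markers summed to 4914 with corn oil and 5999 with AAI in females, where 3 of 7 measured genes were at least 2-fold higher, and to 8205 and 83860 in males, where 5 of 8 were. For adrenal cortex markers the sums were 1658 and 1704 in females and 3470 and 39240 in males, and for the adrenal medulla 2826 and 2793, and 3724 and 17900. Kidney markers stayed between 1524 and 2044. Kupffer cell and other immune markers summed to 58310 with corn oil and 23560 with AAI in females and to 56870 and 31730 in males, and 3 of 8 in females and 1 of 8 in males were at least 2-fold lower after AAI. Cd5l, Clec4f and Adgre1, the defining markers of resident macrophages in this list, had log2 ratios of -1.77, -1.41 and -1.39 in females. The same genes had log2 ratios of -1.04, -0.89 and -0.91 in males. The others of this list did not go one way. Cd68, a general macrophage marker, had -0.17 in females and -0.47 in males, Ptprc -0.48 and -0.18, and Cd3e -0.56 and -0.11. Itgam had 0.66 and 0.08, and the B cell gene Cd79a 0.33 and 0.47. Hepatocyte markers were well above background on every array, with 0 of 10 at least 2-fold different after AAI in either sex. In pooled tissue RNA, fewer cells of a type and less RNA per cell cannot be told apart, and with 1 array per group no ratio of the males after AAI could be taken without the array that held the highest of these sums. The female ratios do not use that array, but they use the AAI-treated female pool, with its higher muscle and lower immune sums. With the 2 female arrays normalized alone, the female ratios were 1.51 for Nqo1 and -1.74 for Cyp1a1. The part of these other cells in the values below was not tested.

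**Figure D1:**
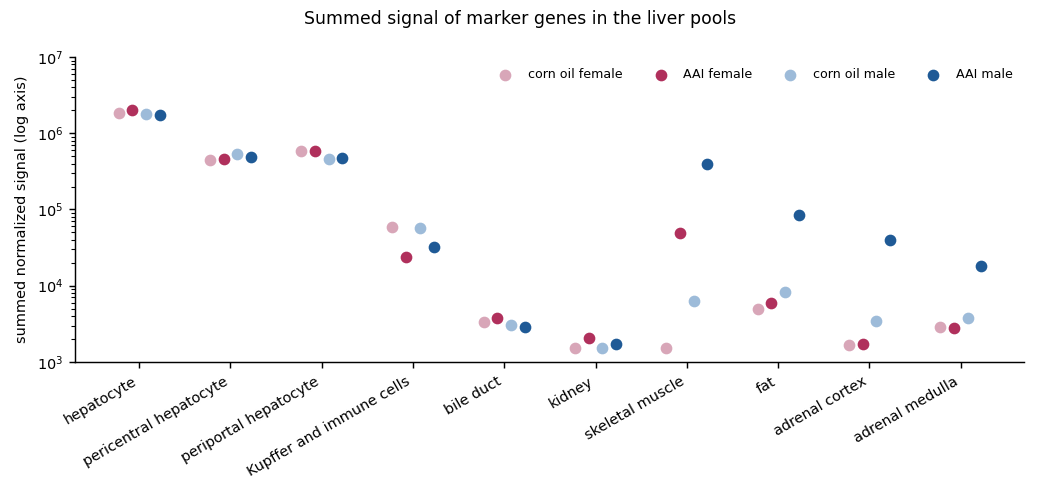
Summed normalized signal (log axis) of marker genes of 10 cell types or tissues in the 4 liver pools, 1 point per array. The hepatocyte sums lie close together, the muscle sums are higher in both AAI-treated pools, and the fat and adrenal sums are highest in AAI-treated males, at 83860 for fat and 39240 for adrenal cortex.

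Of the 8 enzymes, 1 was at least 2-fold higher (Nqo1) and 1 at least 2-fold lower (Cyp1a1) in AAI-treated than in corn oil-treated females. Over all 31662 genes compared in females, 4.53% were at least 2-fold different, 1.45% higher and 3.08% lower. In males 1 enzyme was at least 2-fold higher, again Nqo1, and 0 were at least 2-fold lower, where 3.48% and 4.59% of 30494 genes were, 8.07% in all. The balance of higher and lower genes over the whole array moved with the scaling: 32.1% of the 2-fold different genes in females were higher after quantile normalization, 48.6% after scaling to the 75th percentile and 68.6% after scaling to the spike-in probes. In males these shares were 43.1%, 48.0% and 64.7%. Spike-in scaling moved the median log2 ratio of all probes to 0.20 in females and 0.27 in males. The median log2 ratio of the 8 enzymes was -0.21 in females and -0.15 in males, against 0.04 and 0.02 over all genes above background on both arrays.

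**Figure D2:**
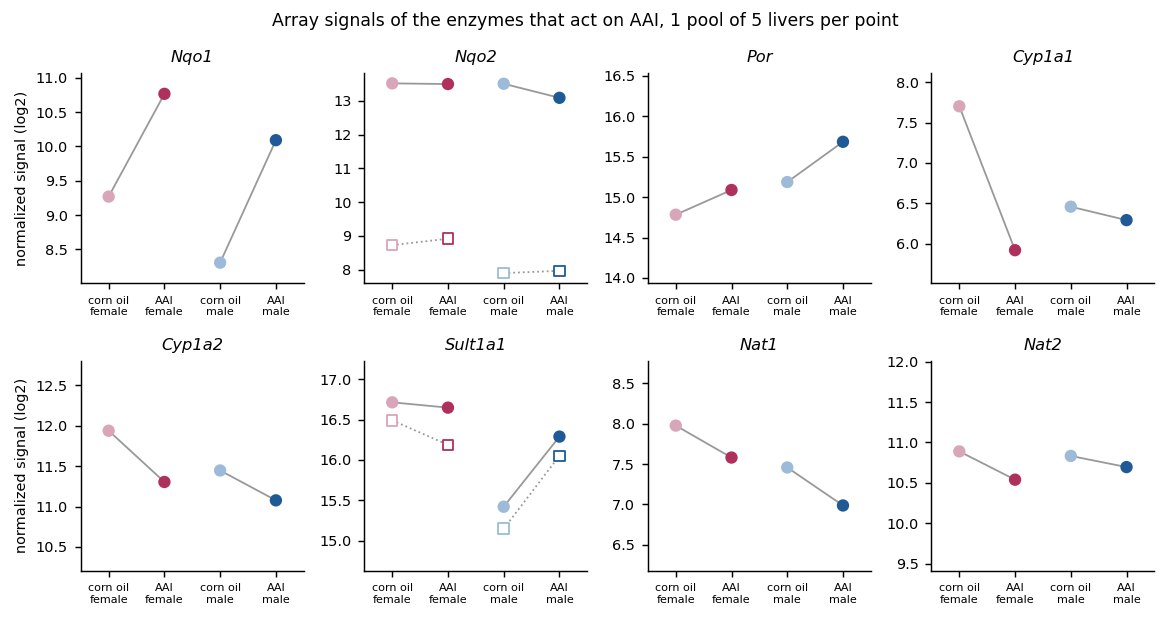
Normalized signal (log2) of each enzyme in the 4 pools of liver RNA, 1 array per point, with lines joining corn oil-treated and AAI-treated mice of 1 sex. Filled circles are the probe that stands for the gene and open squares the other probe of Nqo2 and Sult1a1. Nqo1 is higher in both AAI-treated pools, Cyp1a1 is highest in corn oil-treated females at 7.70, and Sult1a1 is lowest in corn oil-treated males at 15.42.

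Among the nitroreductases, Nqo1 (NM_008706) was the enzyme with the highest ratio in each sex. It encodes NAD(P)H quinone dehydrogenase 1, a cytosolic flavoprotein that transfers pairs of electrons from NADH or NADPH to quinones and nitroaromatics. In females the signal was 9.27 with corn oil and 10.76 with AAI, and in males 8.31 with corn oil and 10.09 with AAI. Both AAI-treated pools lay above both corn oil-treated pools. The log2 ratio was 1.50 in females and 1.78 in males, or 2.82-fold and 3.44-fold. A higher ratio was found for 0.32% of the 29699 genes above background on both female arrays and for 1.09% of 28400 genes in males. The male pools were the lower ones with either treatment, by 0.96 on the log2 scale after corn oil and by 0.67 after AAI. Across 9 alternatives the ratio stayed at or above 2-fold, between 1.29 and 1.61 in females and between 1.47 and 1.96 in males. The probe is single, so the alternative that averages the probes of a gene could not change the ratio. In females this ratio stood beside fat sums of 4914 and 5999, with 3 of 7 fat genes at least 2-fold higher, and adrenal cortex sums of 1658 and 1704, with 0 of 6, in males beside sums that were higher after AAI, and in both beside a higher muscle sum.

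The single Nqo1 probe is shown by its first 30 bases, to identify the stretch of transcript measured. The 250 bases upstream of the transcript start are shown because this is the enzyme that was at least 2-fold higher in both sexes. The probe lies on the minus strand of build mm9, chr8:109912470-109912499, and the promoter, from RefSeq on GRCm38.p6, at chr8:107403206-107403455, also on the minus strand.
Nqo1 probe: taggtcatttatgcaatattcgccattttc
Nqo1 promoter: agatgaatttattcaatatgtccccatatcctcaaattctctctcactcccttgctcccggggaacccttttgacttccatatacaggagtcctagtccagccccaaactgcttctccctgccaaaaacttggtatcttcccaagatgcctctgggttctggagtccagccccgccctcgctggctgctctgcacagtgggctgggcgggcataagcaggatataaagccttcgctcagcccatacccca
The antioxidant response element core TGACNNNGC, read by Nrf2, and the xenobiotic response element core GCGTG, read by the aryl hydrocarbon receptor, were searched on both strands. This window held 0 matches to either, so no base is in capitals. Sequence outside the 250 bases was not searched, so the gene may have either motif elsewhere. Of 32851 promoter windows of the same length, 10.2% held the first motif and 28.2% the second.

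Nqo2 (NM_020282), a related quinone reductase that uses dihydronicotinamide riboside in place of NADPH, was measured by 2 probes that did not give the same picture. The brighter probe had signals of 13.52 with corn oil and 13.50 with AAI in females, and of 13.50 and 13.09 in males. The AAI-treated male pool alone was lower, and the log2 ratio was -0.02 in females and -0.42 in males. The other probe gave 8.72 and 8.91 in females and 7.89 and 7.96 in males, so that it separated the sexes rather than the treatments, with ratios of 0.19 and 0.07. Between the corn oil-treated sexes the probes differed by 0.82 on the log2 scale, with ratios of -0.01 and -0.83, which is more than the SD of 0.23 between probes of a gene. The lower male value of the first probe was therefore not seen with the second, and the mean of both probes gave a ratio of -0.17 in males. The first 30 bases of each are shown because they read different stretches of the gene, on the plus strand of mm9 at chr13:34077456-34077485 for the brighter probe and chr13:34078711-34078740 for the other.
Nqo2 brighter probe: acagtgcccaccaatgagtgtcttcagttt
Nqo2 other probe: acccaagccagaaaggaaattaaattcagg

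Por (NM_008898) encodes cytochrome P450 reductase, the flavoprotein that supplies microsomal cytochromes P450 with electrons from NADPH and can reduce AAI itself. The probe, on chromosome 5 of mm9 between 136211116 and 136211175, gave female signals of 14.78 with corn oil and 15.09 with AAI, and male signals of 15.19 and 15.69. AAI-treated pools were the higher ones within each sex and male pools the higher ones within each treatment. The log2 ratio was 0.31 in females and 0.50 in males, 1.24-fold and 1.41-fold, beyond the SD between probes but below 2-fold. A ratio of larger size was found for 45.8% of genes in females and 24.8% in males. Over the alternatives the ratio of Por ranged from 0.13 to 0.38 in females, so that its lowest values fell within that SD. In males it ranged from 0.38 to 0.90.

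The CYP1A enzymes, which oxidize AAI to its hydroxylated metabolite, had lower signals after AAI in females, and Cyp1a2 also in males. Cyp1a1 (NM_009992), the inducible family member and a standard readout of the aryl hydrocarbon receptor, had a female signal of 7.70 with corn oil and 5.92 with AAI, and a male signal of 6.46 with corn oil and 6.29 with AAI. Corn oil-treated females stood above the other 3 pools. The log2 ratio was -1.78 in females, a 3.44-fold lower signal, and 0.38% of the genes had a lower ratio. In males it was -0.17, within the SD between probes, and above 0 under spike-in scaling. The sex difference was -1.24 with corn oil (males minus females) and 0.37 with AAI. Its spots, all of them marked as well above background, were 5.70 and 2.60 times the background in females, with corn oil and AAI, and 3.26 and 2.73 times in males. With normexp background correction its female ratio was -1.03 and the corn oil sex difference -0.73.

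Cyp1a2 (NM_009993), the constitutive CYP1A enzyme of hepatocytes around the central vein, had signals of 11.94 with corn oil and 11.30 with AAI in females and of 11.45 and 11.08 in males. AAI-treated pools were the lower ones in both sexes, and corn oil-treated males lay 0.49 below corn oil-treated females. The log2 ratio was -0.63 in females and -0.37 in males, 1.55-fold and 1.29-fold lower and beyond the SD between probes in both. Lower ratios were found for 8.14% and 18.4% of genes, and ratios of larger size for 13.8% in females and 36.8% in males. The scanner software had multiplied the intensity of this spot by 1.15 for corn oil-treated females, 1.21 for corn oil-treated males and 1.09 for AAI-treated males in its correction of trends across the array, and had made no such correction on the array of AAI-treated females. Over the alternatives the female ratio ranged from -0.84 to -0.42, and the male ratio from -0.38 to -0.14, the latter within the SD. Pericentral hepatocyte markers had 0 of 10 genes at least 2-fold different in either sex, with median log2 ratios of -0.29 in females and -0.21 in males. The largest female changes among them were those of Rhbg, Axin2, Lgr5 and Glul. Rhbg, an ammonium transporter, had ratios of -0.92 and -0.86, and Axin2 of -0.84 and -0.19. Lgr5 had 0.67 and -0.23, and Glul, the glutamine synthetase of the innermost pericentral cells, -0.66 and -0.61. Periportal markers also had 0 of 10, with medians of -0.10 and 0.13.

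The probes of both genes are shown because these neighbours on chromosome 9 share much of their sequence and each was read by 1 probe. The printed parts lie on mm9 at chr9:57551535-57551564, plus strand, for Cyp1a1 and at chr9:57528090-57528119, minus strand, for Cyp1a2.
Cyp1a1 probe: gataatttgctagtgtaacaaagaagattc
Cyp1a2 probe: cctggagcattttgctacttgtgacatggc
In RefSeq on GRCm38.p6 the transcript starts of the genes are 13958 bases apart, on opposite strands. The 250 bases upstream of Cyp1a1, at chr9:57697363-57697612 on the plus strand, held 1 match to GCGTG, which begins 54 bases before the transcript start and is in capitals.
Cyp1a1 promoter: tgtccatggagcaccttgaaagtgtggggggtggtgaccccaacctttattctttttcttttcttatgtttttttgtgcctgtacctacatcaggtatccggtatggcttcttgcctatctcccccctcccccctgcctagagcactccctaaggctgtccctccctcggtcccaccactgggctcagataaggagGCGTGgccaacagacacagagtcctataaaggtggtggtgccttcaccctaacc
In the same window Cyp1a2 and Sult1a1 held 0 matches to either motif, Por held 3 matches to GCGTG, and Nqo2 held 1 upstream of each of its annotated starts. No member with a promoter in the table, 6 of 8, had a match to TGACNNNGC. Of all promoter windows, 10.2% held TGACNNNGC and 28.2% held GCGTG. These are descriptions of letters in a short window, and no binding was measured.

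**Figure D3:**
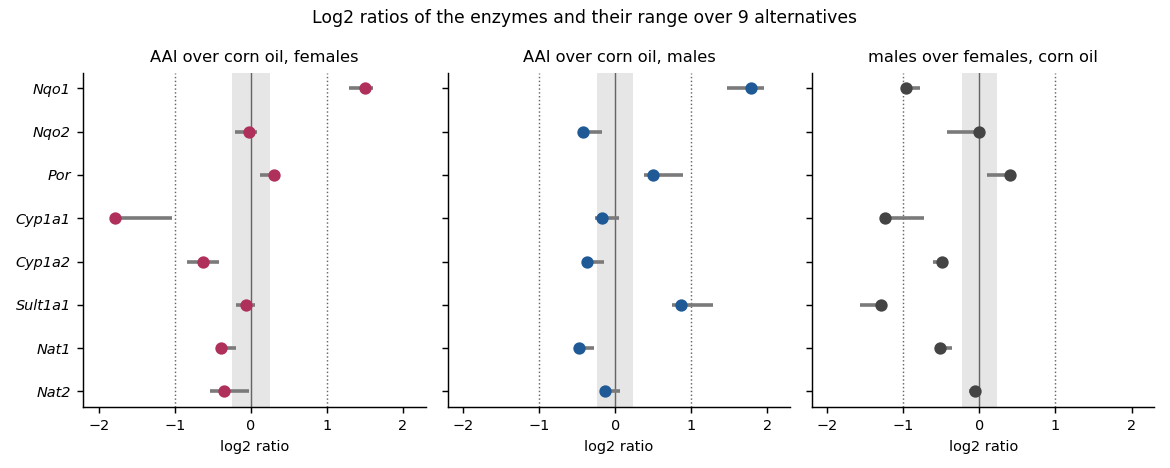
Log2 ratio of each enzyme (points) for AAI over corn oil in females, in males, and for corn oil-treated males over females, with the range over 9 alternative ways of processing (bars). The grey band is the SD between probes of a gene and the dotted lines are 2-fold. Nqo1 lies beyond 2-fold in both sexes, at 1.50 and 1.78, Cyp1a1 in females at -1.78, and Sult1a1 between the corn oil-treated sexes at -1.29.

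Of the conjugating enzymes, Sult1a1 (NM_133670), the phenol sulfotransferase that can sulfonate N-hydroxyaristolactam, had the widest range. Its brighter probe gave 16.71 with corn oil and 16.65 with AAI in females, and 15.42 and 16.29 in males. The corn oil-treated male pool stood below the others, by 1.29 on the log2 scale or 2.45-fold compared with corn oil-treated females. After AAI the males lay 0.36 below the females. The log2 ratio was -0.07 in females, within the SD between probes, and 0.87 in males, or 1.83-fold. The second probe gave 16.49, 16.19, 15.15 and 16.05 in the same order, with ratios of -0.30 in females, just beyond the SD between probes, and 0.90 in males and a corn oil sex difference of -1.34. Both probes thus showed the lower level of corn oil-treated males and the higher male level after AAI. The male ratio was at least 2-fold under 3 of 9 alternatives, at 1.11 with 75th percentile scaling and up to 1.28 with spike-in scaling, and the sex difference was at least 2-fold under all 9. The Sult1a1 probes lie on the minus strand of mm9, at chr7:133816635-133816664 for the printed part of the brighter and chr7:133816657-133816686 for that of the other, and share 8 bases, in capitals, so that they read adjacent stretches of 1 transcript.
Sult1a1 brighter probe, first bases: AAATATGAgtggatatggctatactgggaa
Sult1a1 other probe, last bases: tgtgacttcacgttccgctgtcAAATATGA

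The arylamine N-acetyltransferases acetylate aromatic amines and hydroxylamines with acetyl coenzyme A. Nat1 (NM_008673, chromosome 8 of mm9, 70015778 to 70015837) had signals of 7.98 with corn oil and 7.58 with AAI in females, and of 7.46 and 6.99 in males. AAI-treated pools were lower within each sex and male pools lower within each treatment. The log2 ratios of -0.40 in females and -0.47 in males were both beyond the SD between probes. A ratio of larger size was found for 33.8% of genes in females and 26.9% in males. Under spike-in scaling the female ratio was -0.19, within the SD. Nat2 (NM_010874, chromosome 8, 70026092 to 70026151) had signals of 10.89, 10.54, 10.83 and 10.70 in the same order of pools. Its log2 ratio was -0.35 in females, where 39.5% of genes had a larger one in size, and -0.14 in males, within the SD. The female value depended on the trend correction of the scanner software, which multiplied this spot by 1.24 for corn oil-treated females and left it as it was for AAI-treated females. Without that correction the ratio was -0.03.

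**Figure D4:**
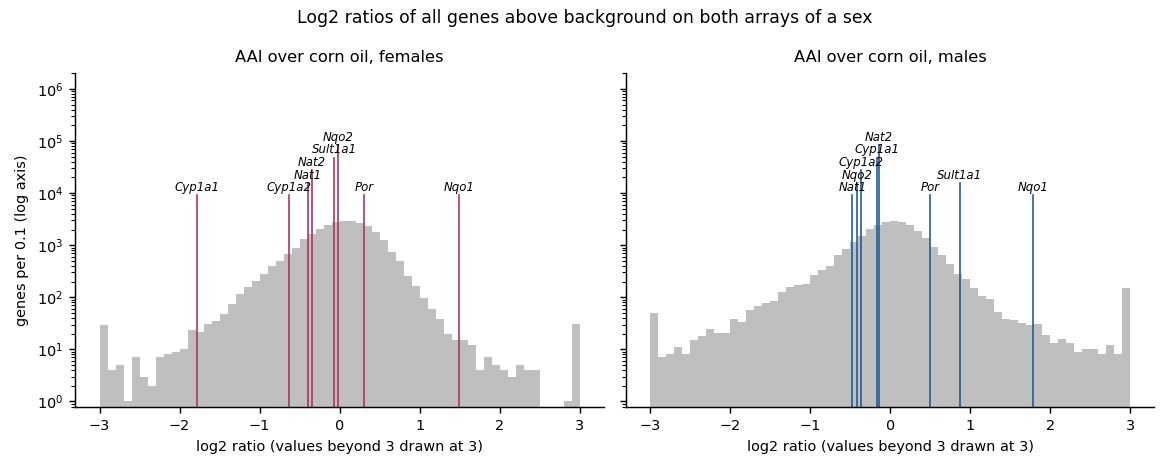
Histogram of the log2 ratios, AAI over corn oil, of all genes whose probe was above background in the corn oil-treated as well as the AAI-treated pool (29699 genes in females, 28400 in males; log axis), with the 8 enzymes marked by lines. Nqo1 lies in the upper tail in both sexes and Cyp1a1 in the lower tail in females, and the other enzymes lie between -0.63 and 0.87.

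In corn oil-treated mice the question was how the sexes differed in these enzymes without AAI. Of 8 enzymes, 0 were at least 2-fold higher and 2 at least 2-fold lower in males, Cyp1a1 and Sult1a1. Over 30871 genes, 5.76% were at least 2-fold different, 3.92% higher and 1.84% lower in males. Markers of other tissues also differed between these 2 pools. In males 10 of 12 muscle, 5 of 7 adrenal cortex and 3 of 8 fat markers were at least 2-fold higher. Their part in the differences of the enzymes was not tested. Nqo1, at -0.96, lay just inside 2-fold, and Nat1 and Cyp1a2 had differences of -0.52 and -0.49. Por was the enzyme with a higher male signal beyond the SD between probes, at 0.40. Its difference lay within that SD at 0.11 after 75th percentile scaling and at 0.14 after median or spike-in scaling. A difference larger in size than 0.40 was found for 30.1% of genes. The median over the enzymes was -0.51, against -0.02 over all genes. Each ratio after AAI shares 1 of these control arrays, so a low signal in a corn oil-treated pool enters both the sex difference and the ratio of that sex.

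Pathway genes were read beside the enzymes. The aryl hydrocarbon receptor (AhR) binds planar aromatic compounds, pairs with Arnt and acts on Cyp1a1, Cyp1a2 and, in part, Nqo1. Among the 9 other genes of this pathway, 0 were at least 2-fold different in females. In males 1 was at least 2-fold higher, Cyp1b1, whose signal was 5.88 after corn oil and 7.02 after AAI, a log2 ratio of 1.14, on the array with the high muscle, fat and adrenal sums. The receptor gene Ahr had ratios of 0.25 in females and -0.66 in males, and Arnt of -0.27 and -0.32. Tiparp, which like Ahrr acts back on the receptor, had ratios of -0.16 and 0.41. Ahrr had ratios of -0.10 and 0.00, beside -1.78 and -0.17 for Cyp1a1.

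Nrf2, encoded by Nfe2l2 and held back by Keap1, acts on Nqo1 through antioxidant response elements. Of 12 other genes of this pathway on the array, 1 was at least 2-fold higher in females, the glutathione S-transferase Gsta2 with a ratio of 1.68, and 0 in males, where Gsta2 had 0.64. None was at least 2-fold lower in either sex, and the median log2 ratio was 0.03 in females and -0.24 in males. Gclc and Gclm, the subunits of glutamate-cysteine ligase, had ratios of -0.20 and 0.03 in females and -0.56 and -0.50 in males. For Hmox1, heme oxygenase, they were -0.32 and -0.44, and for Txnrd1, thioredoxin reductase, -0.21 and -0.03. Gstm1, at 0.58 and 0.78, and Srxn1, sulfiredoxin, at 0.02 and 0.42, were the pathway enzymes with ratios above 0 in both sexes besides Gsta2. Ephx1, microsomal epoxide hydrolase, had 0.84 in females and -0.61 in males. Nfe2l2 itself had ratios of -0.61 and -0.21, and Keap1 of 0.11 and 0.39.

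Partners that supply electrons or cofactors had 0 of 13 genes at least 2-fold different in either sex. Alas1, which catalyses the first step of heme synthesis, had ratios of -0.90 in females and -0.87 in males, and a corn oil-treated male signal 1.93 above that of females. Nat3, an N-acetyltransferase close to Nat1 and Nat2, had -0.91 and 0.22, and G6pdx, which makes NADPH, 0.13 and 0.74. Cyb5a, cytochrome b5, had -0.21 and 0.00. Among 12 other nitroreductases and P450 enzymes that could act on AAI, 0 were 2-fold different in females and 2 were at least 2-fold lower in males. These were Aox1, aldehyde oxidase, with -1.09 in males and 0.65 in females, and Cyp3a11, with -1.10 in males and 0.07 in females. Cyp2c44 had -0.80 in females and -0.90 in males, and Cbr3, a carbonyl reductase, 0.12 and 0.98.

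**Figure D5:**
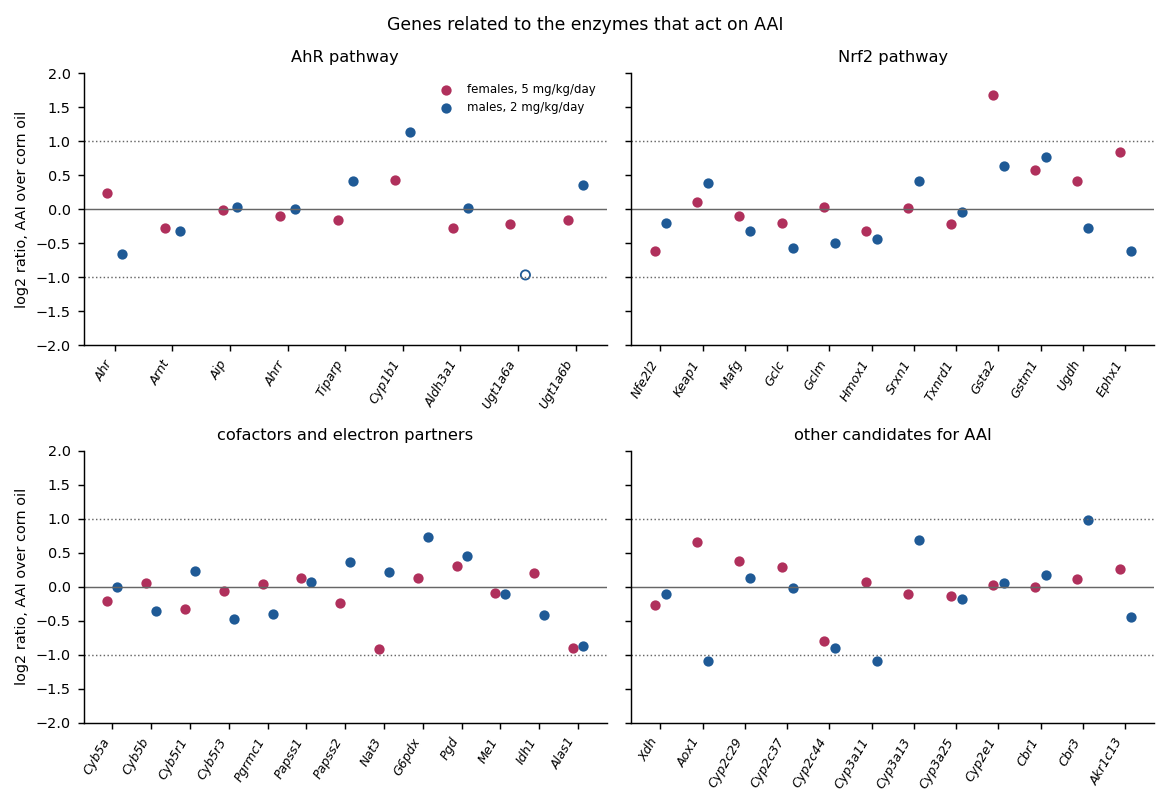
Log2 ratio, AAI over corn oil, of genes related to the enzymes in females (5 mg/kg/day) and males (2 mg/kg/day), 1 point per gene and sex; dotted lines are 2-fold and the open point, Ugt1a6a in males, is a bound because its probe was not above background after AAI. Beyond 2-fold lie Gsta2 in females at 1.68 and, in males, Cyp1b1 at 1.14, Aox1 at -1.09 and Cyp3a11 at -1.10.

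The genes whose pattern over the 4 arrays was most like that of an enzyme were found by the distance between log2 signals centred on their mean, among 28236 genes above background on every array. Nearest to Nqo1 were Lrtm1 at a distance of 0.18, Cyp2g1 at 0.24 and Mgst3 at 0.26. Mgst3, a microsomal glutathione S-transferase, had log2 ratios of 1.38 in females and 2.05 in males. Cyp2g1, a P450 best known from the olfactory mucosa, had ratios of 1.19 and 1.61, and Lrtm1 of 1.27 and 1.90. Nearest to Cyp1a1 were Trp53inp1, a p53-inducible stress protein, at 0.14 and the features named ENSMUST00000112529 and Gm13470 at 0.16 and 0.23. Trp53inp1 had ratios of -1.66 in females and -0.33 in males. For Cyp1a2 they were Olfr1030, AF000427 and Mlxipl, at 0.04, 0.05 and 0.06. Mlxipl, which encodes the glucose-responsive factor ChREBP, had ratios of -0.56 and -0.38. With 4 points per gene and many genes, a close pattern is a description of these arrays.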

How the data were processed

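Liver RNA pools were measured on Agilent 1-colour arrays. Spots were quantified by the authors in Feature Extraction 10.5.1.1, and the deposited intensity values are linear, background-subtracted, trend-corrected on 3 of the 4 arrays and not normalized between arrays. A deposited series table adds a quantile-normalized intensity. Here, log2 of the processed intensity was taken without outlier spots, averaged per probe and quantile normalized over the 4 arrays for 56495 probes. A gene was represented by its brightest probe, and called where it was 2-fold or more apart and above background on either array. Spots whose processed value equals their background were left out of calls, of which there were 26 for corn oil-treated females and 92 for AAI-treated males, none of them a member. The members and gene lists were chosen with earlier results of these data known. From each list at most 4 genes with the largest changes were named, with the regulators and genes chosen after their values were seen. The latter were Ahrr, Gclm, Hmox1, Txnrd1, Srxn1, Cyb5a, Cd68, Cd79a, Ptprc and Cd3e. Gsta1 had no probe by that name. Alternatives covered scaling, background, trend correction, filters, probe choice and threshold, and the steps were tested on simulated data. Python 3.11.15, R 4.3.3 and limma 3.58.1 were used. The files hold no counts, and precision is limited by the number of arrays.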

Additional observations from a re-analysis of the deposited data

Results flagged for a closer look

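Sult1a1 had log2 ratios on opposite sides of 0 in the sexes, -0.07 in females and 0.87 in males, and the male ratio was 0.93 above the female one. The second probe of the gene gave a difference of 1.21. The female ratio lies within the SD between probes of a gene, the doses of the sexes differed, and with 1 pool per group the difference was not tested.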

How the results depend on the processing

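No paired analysis was possible because each group is 1 array and the labels give no replicate numbers, and for the same reason no replicate could be left out. In females 2 enzymes were at least 2-fold different, and 1 was at a 3-fold threshold, where Nqo1 no longer counted. In males the count was 1, and it was 2 after 75th percentile, median or spike-in scaling, through Sult1a1. Between the corn oil-treated sexes it was 2, and it was 1 with normexp background correction, without Cyp1a1, and 0 at 3-fold. The range between the Nqo2 probes in that comparison, 0.82, was 0.55 with normexp. The other 77 values of these counts and probe ranges stayed within their limits of 1.5 times or of the SD between probes. Of 216 recomputed log2 ratios of single enzymes, 199 moved by no more than that SD and 17 by more, and none that lay beyond the SD changed sign. For enzymes with 1 probe the mean of all probes is the main value, so those recomputed ratios could not move. Keeping outlier spots could act only through the normalization, because no spot of these enzymes was marked as an outlier. Within the SD, the sign changed under 2 of 9 alternatives for Nqo2 in females, and under spike-in scaling for Sult1a1 in females and for Cyp1a1 and Nat2 in males. The cause of these shifts was not tested. Spike-in scaling, the alternatives for the sex difference of single enzymes and those for the probe ranges were chosen after seeing the data.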
